A study of Mus musculus with 6 samples.

Results

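The chemokines and chemokine receptors of mouse lung are described here in 3 strains, with and without cigarette smoke. The members are all probe sets whose single gene symbol starts with Ccl, Cxcl, Xcl, Cx3cl, Ccr, Cxcr, Xcr or Cx3cr followed by a digit, with Ccrl2 included. They number 45 of the 12488 probe sets on the array and stand for 40 of 8252 genes, of which 24 are ligands and 16 are receptors. A probe set is a group of short oligonucleotides that together read 1 transcript. Ccl1, Cx3cl1, Cxcl1 and Cxcl12 have more than 1 probe set, and 4 probe sets shared by several chemokine genes (Ccl19, Ccl21 and Ccl27 copies) were left out by the single-symbol rule.

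The 6 Affymetrix arrays hold total lung RNA of ICR smoked, ICR control, DBA smoked, DBA control, C57 smoked and C57 control mice, with 1 array in each group. Smoked mice received the smoke of 3 cigarettes a day on 5 days a week for 4 weeks. Strain names follow the labels, which give no substrain, age or sex. Each title carries the number 1 for its mouse, and whether an array holds 1 animal or a pool is likewise not given, so p-values measure only the spread between these 6 arrays.

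Chemokines are small secreted proteins that direct the movement of leukocytes through receptors coupled to G proteins. Inflammatory chemokines are induced in epithelium, macrophages and other cells by cytokines and microbial products, largely through the transcription factor NF-kappaB, and recruit neutrophils, monocytes or activated lymphocytes. Homeostatic chemokines are made continuously and keep leukocytes in place or passing through a tissue. In the lung, the CXC ligands of Cxcr2 are known for bringing neutrophils into the airspaces, and Ccr2 for the exit of monocytes from the marrow. In whole lung RNA, a change in the number of cells of a type and a change in the RNA of each cell cannot be told apart.

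Of the members described below, Cxcl1 and Cxcl12 were called between strains, and Cxcl2 lies beside Cxcl1. Ccl9 differed widely in the DBA pair but was called in no test as reported, and Cxcl2 was not tested. The promoters of these 4 members are shown as examples. Each is the stretch of 200 bases before the RefSeq transcription start in GRCm38.p6, written 5′ to 3′ along the gene. Capitals mark matches to an NF-kappaB motif (GGG, then any 3 bases, then TTCC) on either strand, with overlapping matches joined.
Cxcl1, chr5:90891045-90891244, plus strand: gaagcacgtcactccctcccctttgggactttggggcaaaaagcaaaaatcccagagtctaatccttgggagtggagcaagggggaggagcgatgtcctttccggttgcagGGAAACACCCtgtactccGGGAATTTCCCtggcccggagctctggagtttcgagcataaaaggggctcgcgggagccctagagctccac
Cxcl2, chr5:90903699-90903898, plus strand: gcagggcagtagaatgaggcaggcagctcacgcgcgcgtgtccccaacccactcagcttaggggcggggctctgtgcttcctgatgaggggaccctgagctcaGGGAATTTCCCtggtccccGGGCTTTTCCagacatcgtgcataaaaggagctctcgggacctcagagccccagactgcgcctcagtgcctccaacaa
Cxcl12, chr6:117168335-117168534, plus strand: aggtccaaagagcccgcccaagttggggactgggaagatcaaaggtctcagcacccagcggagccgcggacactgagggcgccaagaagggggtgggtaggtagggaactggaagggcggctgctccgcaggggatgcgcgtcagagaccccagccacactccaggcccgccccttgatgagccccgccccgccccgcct
Ccl9, chr11:83578637-83578836, minus strand: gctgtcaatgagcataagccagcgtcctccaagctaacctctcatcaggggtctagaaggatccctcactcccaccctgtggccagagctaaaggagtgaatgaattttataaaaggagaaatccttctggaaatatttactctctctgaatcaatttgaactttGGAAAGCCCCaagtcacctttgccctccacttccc

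The Cxcl1 and Cxcl2 promoters share the run GGGAATTTCCC, which starts 71 bases before the Cxcl1 start and 97 bases before the Cxcl2 start. Each of these promoters holds a second match, and Ccl9 has its match 35 to 26 bases before the start. Within 250 bases before the start, 7 of 36 member promoter windows held the motif, belonging to Ccl1, Ccl9, Ccr3, Ccr6, Cxcl1, Cxcl2 and Cxcl10, against 4.65% of 32851 windows in the RefSeq table. The windows of Ccl8 and Ccr2, which also differed widely in the DBA pair, held 0 matches. The table matched 32 of the 40 genes, and Ccl2, Ccl4, Ccl5, Ccl7, Ccl11, Ccr7, Cxcl5 and Cxcr5 were not among them. A match is a run of letters and does not show that the factor binds there.

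The genes lie mostly in clusters of their family. In the RefSeq annotation 12 of the 40 are on chromosome 11, all of them CC genes, and 11 are on chromosome 9, all of them receptors. A further 6 are on chromosome 5 (Cxcl1, Cxcl2, Cxcl5, Cxcl9, Cxcl10 and Cxcl13), and the 4 on chromosome 8 include Ccl17, Ccl22 and Cx3cl1.

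Levels below are the deposited intensities, which are linear and differ in overall brightness between arrays. The array median was 25.9 in ICR smoked and 52.2 in ICR control, 84.8 in DBA smoked and 68.7 in DBA control, and 60.5 in C57 smoked and 60.1 in C57 control lung. Differences are therefore given on the log2 scale after adding 8.05 to every value and quantile normalizing the arrays, and they understate the change of dim probe sets. The ICR smoked array stood apart by its low median, so a lower deposited value there does not by itself mean a lower normalized one. The DBA control array stood apart by its neutrophil markers, whose summed intensity was 1623 in DBA smoked and 19316 in DBA control lung. The C57 arrays stood apart by skeletal muscle markers, of which 5 of 5 tested were called lower both in DBA than C57 and in ICR than C57. Over all probe sets tested, 1.73% and 2.28% were called in these comparisons. Liver markers summed to 5455 in DBA smoked and 860.7 in DBA control lung. Lung epithelial markers were bright on all 6 arrays, with summed intensities of 19113 to 32645.

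Most chemokine genes were dim. Of the 45 probe sets, 19 passed the signal filter, which kept 7453 probe sets by requiring a mean over the 40th percentile, and these 19 stand for 11 ligands and 6 receptors. The other 26 include all probe sets of 23 genes. Those below the filter were Ccl1, Ccl2, Ccl3, Ccl4, Ccl7, Ccl11, Ccl12, Ccl25, Ccr1, Ccr1l1, Ccr3, Ccr4, Ccr7, Ccr8, Ccr9, Cxcl2, Cxcl9, Cxcl10, Cxcl13, Cxcr2, Cxcr3, Cxcr5 and Xcl1. Ccl4 and Ccr4 read below the constant of 8.05 on all 6 arrays, and 23 probe sets read below it on at least 1. Just inside the filter were Cxcl1 (95348_at, percentile 40.06 of the mean) and Xcr1 (41.8), and just outside were Ccl1 (94166_g_at, 39.96) and Ccr1 (39.2). Tests cover the 19 only, and the others are described by their values.

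**Figure D1:**
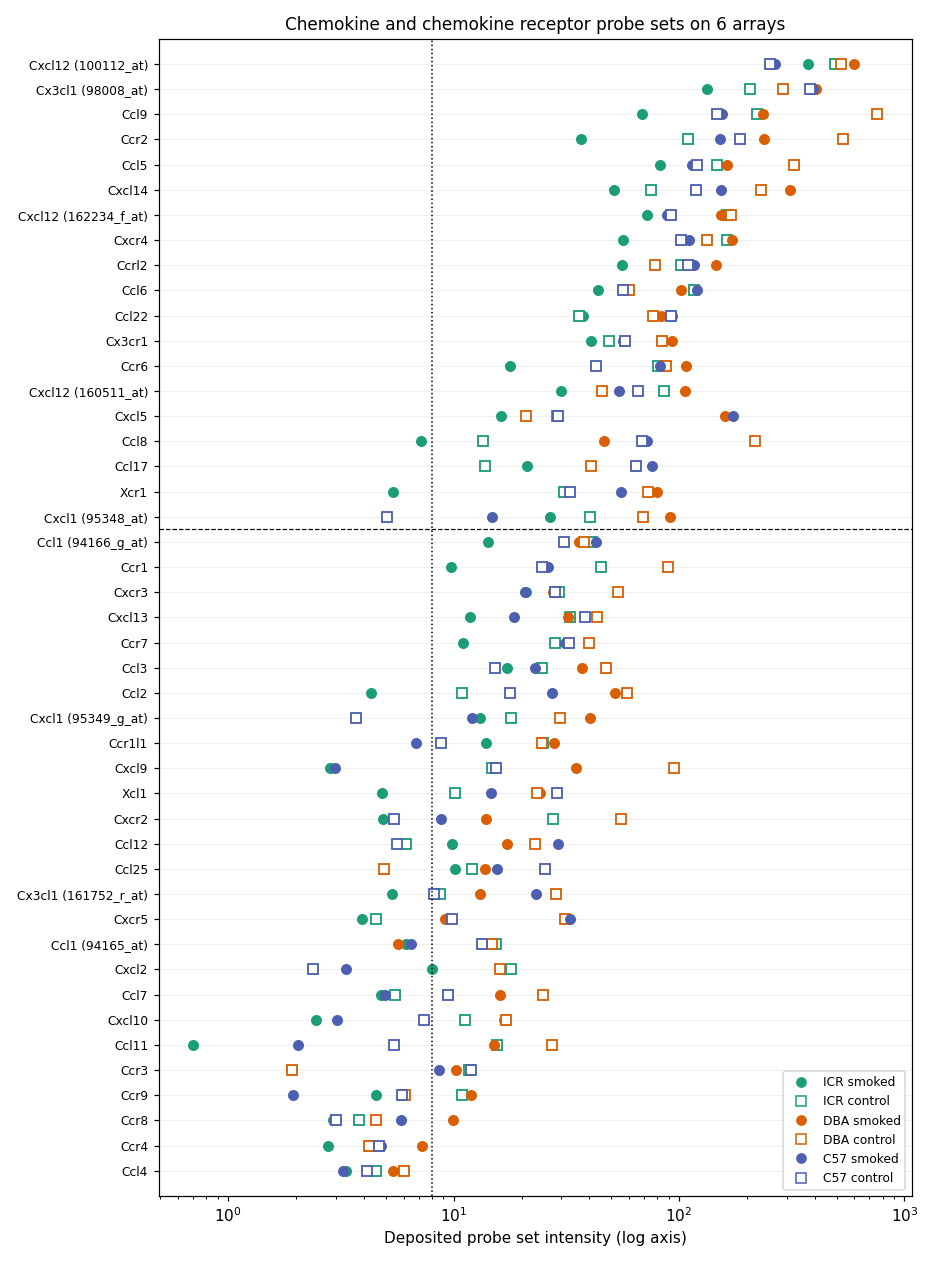
Deposited intensity (x axis, log scale) of the 45 chemokine and chemokine receptor probe sets (rows, ordered by mean normalized log2 value) on 6 arrays. Filled circles are smoked and open squares control arrays, the dotted line is the constant of 8.05, and the 19 probe sets above the dashed line passed the signal filter. Most rows below the dashed line have points near or under the dotted line.

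Across the 3 strains, smoke changed no member past the threshold. The smoke effect, fitted with limma across 7453 probe sets with strain as a block, called 0 of the 19 at an adjusted p below 0.05, against 0.0403% of all probe sets (3 of 7453). At an unadjusted p below 0.05 there were 3 members, Cxcl5, Ccr2 and Ccl9, against 1.65% of all probe sets. Cxcl5 passed the filter partly through its DBA and C57 smoked arrays, so its place in this count is not independent of the filter. Ccl9 was called lower only without the C57 pair (log2 -1.33, adjusted p = 0.0418 by limma), where 2 pairs remain. The 19 had a median smoked minus control difference of 0.12 in ICR, -0.00 in DBA and 0.12 in C57, beside 0.01, 0.03 and -0.01 over all probe sets kept.

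Same-direction differences were counted next. Of the 19, 8 had the same sign in all 3 strains against 17.6% of all probe sets kept. In 6 the smoked array was higher (9.92% of all) and in 2 lower (7.66% of all). The 6 include Cxcl5, which passed the filter partly through smoked arrays, so the count of higher members is not independent of the filter. Over all 45 the count was 18, with 9 higher and 9 lower, against 19.9% of 12422 probe sets. Without scaling the arrays the count among the 19 was 5, against 7.57%. Under quantile normalization, median scaling and no scaling alike it was 3, against 2.75%: Ccl17 higher, and Ccr2 and 1 probe set of Cxcl12 (162234_f_at) lower. Over all 45 the last count was 8, against 4.23% of 12422 probe sets, and the added 5 were below the filter: Ccl11, Cxcl9, Cxcl10, Cxcl13 and Ccr7, each lower on the smoked array. Of these, Ccl11 and Cxcl10 read below the constant on both C57 arrays. These counts are descriptions of 3 pairs of arrays.

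**Figure D2:**
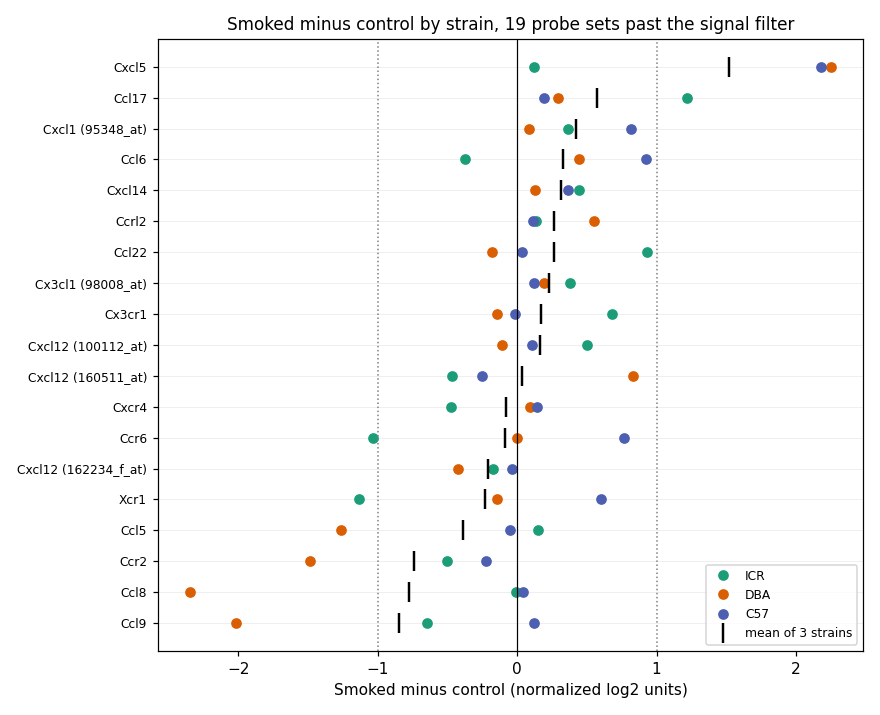
Smoked minus control difference in normalized log2 units (x axis) for the 19 probe sets that passed the signal filter (rows), with 1 point for each strain and a black bar at the mean. Dotted lines mark 2-fold. Cxcl5 lies beyond 2-fold in DBA (2.25) and C57 (2.18) but at 0.12 in ICR, and Ccl8, Ccl9, Ccr2 and Ccl5 lie beyond 2-fold on the lower side in DBA.

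Among the neutrophil-attracting ligands, Cxcl5 had the widest difference within a strain. Cxcl5, a Cxcr2 ligand that alveolar epithelium is known to make, read 16.2 in ICR smoked and 28.7 in ICR control, 160.3 in DBA smoked and 21.0 in DBA control, and 174 in C57 smoked and 29.2 in C57 control lung. The DBA and C57 smoked arrays thus stood apart from the other 4. The probe set passed the filter partly through these smoked arrays, so the filter and the smoke difference are not independent. The mean smoke effect was 1.52 on the log2 scale (SE 0.41, 3 pairs, higher in 3 of 3 on the normalized scale, limma adjusted p = 0.99999). In ICR the sign depended on scaling, with 0.12 after quantile normalization, 0.23 after median scaling and -0.60 unscaled. Tested as an extra smoke effect, ICR differed from the other strains by -2.09 (SE 0.39, limma adjusted p = 0.290). Without scaling that difference was -3.01 (adjusted p = 0.000175 by limma), a setting under which the median ICR difference of all probe sets kept was -0.87.

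Cxcl1, the other Cxcr2 ligand that passed the filter, was called between strains and not with smoke. Its probe set 95348_at read 26.8 in ICR smoked and 40.4 in ICR control, 91.3 in DBA smoked and 69.5 in DBA control, and 14.8 in C57 smoked and 5.07 in C57 control lung. All 4 ICR and DBA arrays lay above both C57 arrays. After quantile normalization, smoked minus control was 0.36 in ICR, 0.09 in DBA and 0.82 in C57, while unscaled the ICR value was -0.47. The probe set passed the filter narrowly and through its ICR and DBA arrays, so the filter and the strain difference are not independent. It was 1 member called in DBA against C57, where 1.73% of all probe sets were called, with a log2 difference of 1.93 (SE 0.33, 2 arrays a strain, limma adjusted p = 0.0212, or 0.09 with no filter). In ICR against C57, where 2.28% of all probe sets were called, it was 1 of 2 members called, at 1.74 (SE 0.33, limma adjusted p = 0.0356, or 0.112 with no filter). The C57 control array read below the constant, so the size of both differences depends on it. ICR minus DBA was -0.19.

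Both calls on Cxcl1 rested on single arrays and on the filter. Without the C57 control array, DBA minus C57 was 1.64 (adjusted p = 0.148 by limma) and ICR minus C57 was 1.45 (adjusted p = 0.248). Leaving out the DBA control array gave 1.68 for DBA minus C57 (adjusted p = 0.164). Leaving out the ICR control array gave 1.70 for ICR minus C57 (adjusted p = 0.171), and leaving out the ICR smoked array gave 1.79 (adjusted p = 0.0654). Cxcl1 was called in 7 of 10 alternatives that kept it for DBA minus C57 (1.55 to 2.23, adjusted p of 0.00647 to 0.164) and in 6 of 10 for ICR minus C57 (1.38 to 2.04, adjusted p of 0.00694 to 0.248).

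The second Cxcl1 probe set and Cxcl2 were below the filter and had their lowest values in the same strain. Cxcl1 (95349_g_at) read 13.1 in ICR smoked and 17.9 in ICR control, 40.3 in DBA smoked and 29.7 in DBA control, and 12.0 in C57 smoked and 3.67 in C57 control lung. Its strain differences were 1.10 for DBA minus C57 and 1.04 for ICR minus C57, smaller than those of 95348_at. Cxcl2, another Cxcr2 ligand encoded beside Cxcl1 on chromosome 5, read 7.98 in ICR smoked and 18.1 in ICR control, 15.8 in DBA smoked and 16 in DBA control, and 3.32 in C57 smoked and 2.38 in C57 control lung. On the normalized scale Cxcl2 was 0.84 higher in DBA than C57 and 1.25 higher in ICR than C57, with no overlap of arrays. Both C57 arrays read below the constant, so the size of these differences depends on it.

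Cxcr2, the receptor of these ligands on neutrophils, was below the filter. It read 4.86 in ICR smoked and 27.5 in ICR control, 13.9 in DBA smoked and 55.2 in DBA control, and 8.79 in C57 smoked and 5.46 in C57 control lung. It was lower on the smoked array in ICR (-1.11) and DBA (-1.61) and higher in C57 (0.36). Between strains, Cxcr2 was 0.78 higher in ICR than C57 with no overlap of arrays, and 0.98 higher in DBA than C57 with overlap. Neutrophil markers, of which 11 of 13 were measured and none read below the constant on all arrays, summed to 1224 in ICR smoked and 3261 in ICR control, 1623 in DBA smoked and 19316 in DBA control, and 1500.4 in C57 smoked and 1389.8 in C57 control lung. Their part in the Cxcr2 values was not tested.

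**Figure D3:**
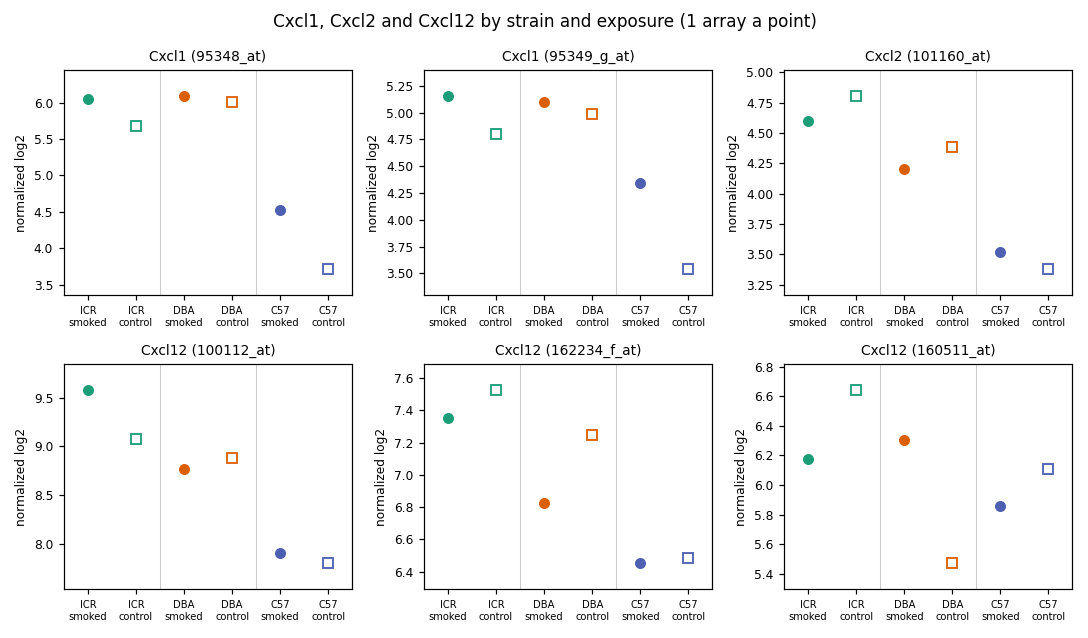
Normalized log2 value (y axis, not starting at 0) of the 2 Cxcl1 probe sets, Cxcl2 and the 3 Cxcl12 probe sets on 6 arrays (x axis), filled circles for smoked and open squares for control arrays. Cxcl1, Cxcl2 and Cxcl12 (100112_at) are lowest on both C57 arrays, whereas Cxcl12 (160511_at) overlaps between strains.

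The stromal chemokine Cxcl12, the ligand of Cxcr4 that holds leukocytes and progenitors in tissue, was the second member called in ICR against C57. Its probe set 100112_at read 374 in ICR smoked and 494 in ICR control, 599.8 in DBA smoked and 523 in DBA control, and 268 in C57 smoked and 254 in C57 control lung. ICR minus C57 was 1.48 (SE 0.24, 2 arrays a strain, limma adjusted p = 0.0175), and DBA minus C57 was 0.97 (adjusted p = 0.094 by limma). The ICR difference was called in 10 of 14 alternatives (0.71 to 1.73, adjusted p of 0.00038 to 0.423). It missed the threshold unscaled at 0.71, with no filter (adjusted p = 0.0586 by limma), without the ICR control array (1.73, adjusted p = 0.0595 by limma) and without the ICR smoked array (1.23, adjusted p = 0.0577).

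Of the other Cxcl12 probe sets, 1 had the same order of strains. Cxcl12 (162234_f_at) read 71.7 in ICR smoked and 164 in ICR control, 154 in DBA smoked and 169.6 in DBA control, and 88.2 in C57 smoked and 91.8 in C57 control lung, which gave 0.97 for ICR minus C57 (SE 0.25, limma adjusted p = 0.092) and 0.57 for DBA minus C57, without overlap of arrays in either. The ICR difference was called without the DBA control array (adjusted p = 0.0446 by limma) or the DBA smoked array (0.0448). Cxcl12 (160511_at) read 29.9 in ICR smoked and 85.5 in ICR control, 106 in DBA smoked and 45.4 in DBA control, and 54.0 in C57 smoked and 65.9 in C57 control lung. Its ICR minus C57 difference was 0.42 (adjusted p = 0.574 by limma). With smoke, 160511_at was 0.83 higher in DBA where 162234_f_at was 0.42 lower, so these probe sets differed in direction in that pair.

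Cxcr4, the Cxcl12 receptor, read 56.6 in ICR smoked and 163 in ICR control, 171 in DBA smoked and 133 in DBA control, and 111 in C57 smoked and 101.7 in C57 control lung. Smoked minus control was -0.48 in ICR, 0.09 in DBA and 0.14 in C57, and none of the 7 tests called it. Cxcl14, a chemokine made by epithelium and other tissue cells, read 51.3 in ICR smoked and 74.8 in ICR control, 311 in DBA smoked and 231 in DBA control, and 154 in C57 smoked and 119 in C57 control lung. It was higher on the smoked array in each strain after quantile normalization, by 0.45 in ICR, 0.13 in DBA and 0.36 in C57, but unscaled the ICR value was -0.48. Between strains, ICR minus DBA was -1.06 (SE 0.24, limma adjusted p = 0.091).

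The B cell chemokine Cxcl13, which organizes lymphoid follicles, was lower on all 3 smoked arrays under every scaling. Below the filter, Cxcl13 read 11.9 in ICR smoked and 32.9 in ICR control, 32.2 in DBA smoked and 43.3 in DBA control, and 18.5 in C57 smoked and 38.4 in C57 control lung. Its receptor Cxcr5 went in opposite directions. Cxcr5 read 3.94 in ICR smoked and 4.52 in ICR control, 9.12 in DBA smoked and 31.3 in DBA control, and 32.7 in C57 smoked and 9.83 in C57 control lung, or -1.22 in DBA and 1.16 in C57 on the normalized scale.

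The interferon-induced ligands Cxcl9 and Cxcl10 and their receptor were all below the filter. Cxcl9, which attracts activated T cells through Cxcr3, read 2.84 in ICR smoked and 14.9 in ICR control, 34.8 in DBA smoked and 95 in DBA control, and 2.98 in C57 smoked and 15.4 in C57 control lung. Smoked minus control was -0.86 in ICR, -1.50 in DBA and -1.04 in C57, with the ICR and C57 smoked arrays below the constant. Both DBA arrays stood above the other 4. With no filter the smoke effect was -1.13 (SE 0.27, limma adjusted p = 0.999).

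Cxcl10, another Cxcr3 ligand, read 2.46 in ICR smoked and 11.2 in ICR control, 16.8 in DBA smoked and 17.1 in DBA control, and 3.03 in C57 smoked and 7.39 in C57 control lung, with differences of -0.67, -0.19 and -0.45 in that order of strains. Both C57 arrays and the ICR smoked array were below the constant. Cxcr3, the receptor of Cxcl9 and Cxcl10 on T and NK cells, read 20.8 in ICR smoked and 29.4 in ICR control, 27.7 in DBA smoked and 53.3 in DBA control, and 20.8 in C57 smoked and 28.3 in C57 control lung. Cxcr3 was lower in DBA (-0.96) and C57 (-0.30) and, after quantile normalization, higher in ICR (0.41), where the unscaled value was -0.37.

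The DBA pair held most of the wide differences among monocyte and macrophage chemokines. In DBA, 5 of the 19 members differed at least 2-fold, against 3.07% of all probe sets kept. Cxcl5 was higher (0.684% of all) and Ccl5, Ccl8, Ccl9 and Ccr2 were lower (2.39% of all) on the smoked array. The same count was 3 in ICR (against 6.49%), with Ccl17 higher (2.8% of all) and Ccr6 and Xcr1 lower (3.69% of all). It was 1 in C57 (against 1.22%), Cxcl5. With 1 array a group these counts have no test. Cxcl5 and Ccl8 passed the filter partly through the higher arrays of these pairs, so the filter and the counts are not independent. Tested as an extra smoke effect of 1 strain, limma called 0 of the 19 in DBA (0.577% of all probe sets), 0 in ICR (0.0%) and 0 in C57 (0.295%). At an unadjusted p below 0.05 there were 5, 5 and 1 members, against 3.77%, 14.4% and 3.15% of all probe sets.

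Ccl8, a monocyte chemokine, read 7.18 in ICR smoked and 13.5 in ICR control, 46.4 in DBA smoked and 217 in DBA control, and 71.8 in C57 smoked and 68.7 in C57 control lung. DBA control was the highest of the 6 arrays and both ICR arrays were the lowest. The probe set passed the filter partly through its DBA control array, so the filter and the DBA difference are not independent. The DBA pair differed by -2.35, and its extra smoke effect was -2.36 (SE 0.64, limma adjusted p = 0.0855; 0.0331 to 0.903 over 8 alternatives, of which 2 called it). The highest of these adjusted p-values came with no filter. Between strains, ICR minus DBA was -1.92 (SE 0.54, limma adjusted p = 0.142).

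Ccl9, a ligand of Ccr1, read 68.5 in ICR smoked and 221 in ICR control, 236 in DBA smoked and 758 in DBA control, and 156 in C57 smoked and 147 in C57 control lung. The DBA control array was again the highest. The DBA pair differed by -2.02 and the ICR pair by -0.65, and the extra smoke effect of DBA was -1.75 (SE 0.54, limma adjusted p = 0.201). Without the DBA smoked array, Ccl9 was called higher in DBA than C57 (2.17, adjusted p = 0.00018 by limma), where all 6 arrays gave 1.29 (SE 0.43, adjusted p = 0.247).

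Ccr2, the receptor of inflammatory monocytes, read 36.9 in ICR smoked and 109 in ICR control, 238 in DBA smoked and 533 in DBA control, and 151 in C57 smoked and 186 in C57 control lung. It was lower on the smoked array in all 3 strains and under all 3 scalings, by -0.50 in ICR, -1.49 in DBA and -0.23 in C57. The mean smoke effect was -0.74 (SE 0.26, 3 pairs, limma adjusted p = 0.99999). ICR minus DBA was -1.45 (SE 0.32, limma adjusted p = 0.0845), and this difference was called in 4 of 14 alternatives, among them leaving out the DBA smoked array (-2.01, adjusted p = 0.000812), the C57 control array (-1.45, 0.00346) or the C57 smoked array (-1.45, 0.00319).

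The other monocyte ligands were below the filter. Ccl2, the main Ccr2 ligand, read 4.31 in ICR smoked and 10.9 in ICR control, 51.8 in DBA smoked and 58.7 in DBA control, and 27.4 in C57 smoked and 17.9 in C57 control lung. Both DBA arrays lay above both C57 arrays, and these above both ICR arrays. Ccl7 read from 4.76 in ICR smoked to 24.9 in DBA control lung. Ccl12 read 9.84 in ICR smoked and 6.16 in ICR control, 17.3 in DBA smoked and 23.0 in DBA control, and 29.0 in C57 smoked and 5.61 in C57 control lung, a C57 difference of 1.43.

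Ccl5, a ligand of Ccr1 and Ccr3 made by T cells and others, read 82.3 in ICR smoked and 147 in ICR control, 163 in DBA smoked and 323 in DBA control, and 113.8 in C57 smoked and 120.7 in C57 control lung. The DBA pair differed by -1.27, with an extra smoke effect of -1.32 (limma adjusted p = 0.757). Ccl6, a ligand of Ccr1 in mice, went the other way, at 43.6 in ICR smoked and 117 in ICR control, 102.5 in DBA smoked and 59.98 in DBA control, and 120.5 in C57 smoked and 56.5 in C57 control lung. Smoked minus control of Ccl6 was -0.38 in ICR, 0.44 in DBA and 0.93 in C57, and no test called it.

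Ccr1, a receptor of monocytes and neutrophils, was just below the filter. It read 9.75 in ICR smoked and 45.0 in ICR control, 26 in DBA smoked and 89.7 in DBA control, and 26.3 in C57 smoked and 24.6 in C57 control lung, differences of -1.01, -1.71 and 0.09. Like Cxcr2, it was highest in DBA control and next highest in ICR control lung. Ccl3 read from 15.3 in C57 control to 47.4 in DBA control lung, and Ccl4 from 3.23 to 6.03 over all arrays. Ccr1l1 read 13.9 in ICR smoked and 24.9 in ICR control, 27.9 in DBA smoked and 24.7 in DBA control, and 6.80 in C57 smoked and 8.76 in C57 control lung, so both C57 arrays were the lowest.

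Markers of myeloid cells were also lower on the DBA smoked than the DBA control array, as were those of other cells. In that pair the median difference was -0.68 for B cell, -0.66 for NK cell and -0.24 for T cell markers. It was -0.78 for stratified epithelium markers, and among all marker lists only lung endothelium (0.12) and liver (2.96) were higher. Neutrophil markers had a median smoked minus control difference of -0.12 in ICR, -3.67 in DBA and -0.08 in C57. Of 9 tested, 6 were called lower in the extra smoke effect of DBA (0.577% of all probe sets called) and 4 higher in that of C57 (0.295%). An extra smoke effect sets the pair of 1 strain against the pairs of the other strains. The C57 calls therefore depend on the DBA pair too, and do not by themselves show a rise with smoke in C57. Alveolar macrophage markers (7 of 12 measured, none below the constant on all arrays) summed to 1370.4 in ICR smoked and 2862 in ICR control, 1953 in DBA smoked and 3756 in DBA control, and 3033 in C57 smoked and 2007 in C57 control lung. Of the 5 tested, 1 was called lower in the extra smoke effect of DBA (0.577% of all probe sets called) and 1 higher in that of C57 (0.295%). Monocyte markers (5 of 10 measured, none below the constant on all arrays) summed to 765.5 in ICR smoked and 1856 in ICR control, 2485 in DBA smoked and 3450.4 in DBA control, and 1899 in C57 smoked and 1633 in C57 control lung. Dendritic cell markers (8 of 8 measured) summed to 8762 in DBA smoked and 10737 in DBA control lung, within a range of 3298 to 10737 over the 6 arrays. The part of any of these cell types, myeloid or other, in the lower Ccl5, Ccl8, Ccl9, Ccr1 and Ccr2 values was not tested.

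**Figure D4:**
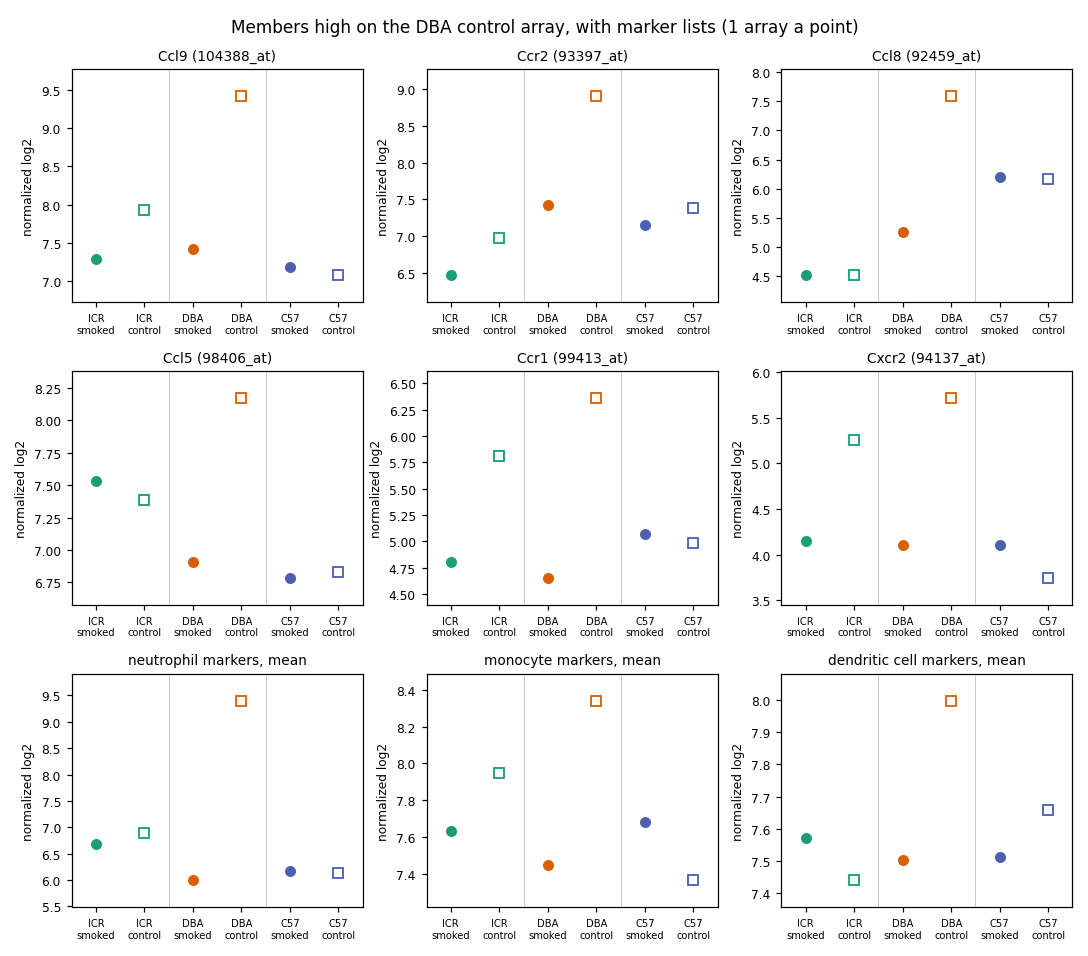
Normalized log2 value (y axis, not starting at 0) of Ccl9, Ccr2, Ccl8, Ccl5, Ccr1 and Cxcr2, and mean normalized log2 value of the neutrophil, monocyte and dendritic cell marker lists, on 6 arrays (x axis), filled circles for smoked and open squares for control arrays. The DBA control array is the highest of the 6 in all 9 panels, whose genes were chosen as members high on that array. Marker lists not shown differed. The alveolar macrophage mean was highest in ICR control (7.57, against 7.37 in DBA control). The NK cell mean was also highest in ICR control (6.02, against 5.59), and the B cell mean in C57 smoked (6.97, against 6.71).

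Among ligands and receptors of type 2 responses, Ccl17 and Ccl22 passed the filter. Ccl17, which attracts Ccr4-bearing T cells, read 21.1 in ICR smoked and 13.8 in ICR control, 63.8 in DBA smoked and 40.8 in DBA control, and 76.1 in C57 smoked and 64.5 in C57 control lung. It was higher on the smoked array in all 3 strains under all 3 scalings, by 1.22 in ICR, 0.30 in DBA and 0.19 in C57 after quantile normalization. Unscaled, the ICR difference was 0.42. The mean smoke effect was 0.57, and ICR minus C57 was -1.03 (limma adjusted p = 0.167). The probe set passed the filter partly through its C57 arrays, so the filter and the strain difference are not independent.

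Ccl22, the other Ccr4 ligand and a neighbour of Ccl17 on chromosome 8, read 37.5 in ICR smoked and 36.1 in ICR control, 83.1 in DBA smoked and 76.8 in DBA control, and 93.4 in C57 smoked and 92.1 in C57 control lung. Its deposited values hardly differed within a pair, and the ICR difference was 0.93 normalized and 0.05 unscaled. Ccr4 itself read below the constant throughout. Ccl11 (eotaxin), which recruits eosinophils through Ccr3, was below the filter and lower on the smoked array in each strain. It read 0.697 in ICR smoked and 15.5 in ICR control, 15.1 in DBA smoked and 27.2 in DBA control, and 2.03 in C57 smoked and 5.43 in C57 control lung. Both C57 arrays and the ICR smoked array were thus below the constant.

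Ccr3 read 1.89 in ICR smoked and 11.6 in ICR control, 10.3 in DBA smoked and 1.92 in DBA control, and 8.58 in C57 smoked and 11.9 in C57 control lung, between 1.89 and 11.9 on all arrays. Eosinophil and mast cell markers were also dim, with Epx, Mcpt4 and Fcer1a below the constant on all 6 arrays. Ccl1 (94165_at) read lower on each smoked array, at 6.14 in ICR smoked and 15.5 in ICR control, 5.65 in DBA smoked and 14.7 in DBA control, and 6.49 in C57 smoked and 13.3 in C57 control lung. Its 3 smoked arrays read below the constant, and after median scaling the ICR difference was 0.10. The second Ccl1 probe set, 94166_g_at, had differences of -0.45, -0.28 and 0.37 and did not share the lower direction in C57. Ccr8 read from 2.9 to 9.9 over the 6 arrays.

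Of the lymphoid and mucosal members only Ccr6 passed the filter. Ccr6, the Ccl20 receptor of B cells, dendritic cells and some T cells, read 17.7 in ICR smoked and 80.5 in ICR control, 107.4 in DBA smoked and 87.3 in DBA control, and 82.3 in C57 smoked and 42.8 in C57 control lung. It was -1.03 in ICR, -0.00 in DBA and 0.77 in C57 on the normalized scale, with an extra smoke effect of -1.42 in ICR (limma adjusted p = 0.323). Ccr7, which guides dendritic cells and T cells to lymph nodes, read from 11 in ICR smoked to 39.8 in DBA control lung. Ccl25 read from 4.90 to 25.4, and its receptor Ccr9 from 1.94 to 11.9.

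In the C and CX3C families, Cx3cl1 (fractalkine), a chemokine tethered to endothelium and epithelium, was bright on every array. Its probe set 98008_at read 134 in ICR smoked and 206 in ICR control, 406 in DBA smoked and 289.5 in DBA control, and 392 in C57 smoked and 381 in C57 control lung. Smoked minus control was 0.38 in ICR, 0.19 in DBA and 0.12 in C57 after quantile normalization, and -0.59 in ICR unscaled. A second probe set, 161752_r_at, was below the filter, at 5.32 in ICR smoked and 8.70 in ICR control, 13.1 in DBA smoked and 28.5 in DBA control, and 23.1 in C57 smoked and 8.20 in C57 control lung, and did not follow it. Cx3cr1, the receptor on monocytes and macrophages, read 40.8 in ICR smoked and 49.1 in ICR control, 93.2 in DBA smoked and 83.9 in DBA control, and 56.6 in C57 smoked and 57.5 in C57 control lung, without a call.

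Xcr1, the receptor of cross-presenting dendritic cells, read 5.39 in ICR smoked and 30.9 in ICR control, 80.3 in DBA smoked and 72.9 in DBA control, and 55.2 in C57 smoked and 32.9 in C57 control lung. The ICR pair differed by -1.14 and the C57 pair by 0.60, with an extra smoke effect of -1.36 in ICR (limma adjusted p = 0.330). Its ligand Xcl1 read from 4.81 in ICR smoked to 28.7 in C57 control lung. Ccrl2, an atypical receptor that binds chemerin, read 55.7 in ICR smoked and 103 in ICR control, 145 in DBA smoked and 78.2 in DBA control, and 117 in C57 smoked and 109 in C57 control lung. It was 0.55 higher in DBA and 0.14 and 0.11 higher in ICR and C57 after quantile normalization, while unscaled the ICR value was -0.79.

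Seen over the strains, members went in both directions in each comparison, though more often higher than lower in DBA against C57. Both DBA arrays lay above both C57 arrays for 10 of the 19, against 23.3% of all probe sets kept, and below them for 3, against 29.2%. For ICR against C57 these counts were 8 (24.8%) and 5 (26.5%), and for ICR against DBA 5 (25.0%) and 4 (22.8%). The median difference of the 19 was 0.27 for DBA minus C57, 0.19 for ICR minus C57 and -0.08 for ICR minus DBA, beside -0.03, -0.02 and 0.01 over all probe sets kept. Cxcl1 and Xcr1, both higher in DBA than C57, passed the filter narrowly and partly through their DBA arrays. Ccl17, lower in DBA, passed partly through its C57 arrays. The filter is therefore not independent of these counts and medians. Over all 45 with no filter, both DBA arrays lay above both C57 arrays for 19 and below them for 5. Over all 12422 probe sets these numbers were 2675 and 3260. The median DBA minus C57 was 0.25 over the 45 and -0.02 over all. In ICR against DBA limma called 0 of the 19, where 1.13% of all probe sets were called, with 5 at an unadjusted p below 0.05 against 15.5% of all. The comparisons with C57 share the C57 arrays, so the 2 medians are not independent.

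The other genes of the pathway held 2 calls. Of the platelet chemokines and atypical receptors with other symbols, 7 of 10 were measured and 4 tested, and none was called in any of the 7 tests. Of the genes that carry the chemokine receptor signal or drive migration, 19 of 30 were measured and tested. Rac2, a small GTPase of leukocyte migration, was called lower in the extra smoke effect of DBA (-2.97), where 0.577% of all probe sets were called, and the other 18 were called in none. Of the cytokines and NF-kappaB genes known to induce chemokines, 20 of 24 were measured and 12 tested. Il1b, an inflammatory cytokine, was called higher in ICR than C57 (1.74), where 2.28% of all probe sets were called, and the other 11 were called in none. Il6 and Ifng read below the constant on all 6 arrays.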

How the data were processed

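Total lung RNA was extracted with Trizol, primed with oligo(dT) and labelled with biotin, per the labels' protocols. The values are probe set intensity on a linear scale, deposited by the authors with 1 value per probe set and array. No source used here names their summary method or scaling. The log2 medians of the arrays spanned 1.71, above the limit of 0.1 for leaving arrays unscaled. After 66 control probe sets were left out, log2(value + 8.05) was quantile normalized, the constant being the 20th percentile over the file. The signal filter kept 7453 probe sets, those whose mean exceeded the 40th percentile. Differences were tested with limma (version 3.58.1, R version 4.3.3; lmFit and eBayes, prior variance trended on the mean) and strain as a block, which leaves 2 residual degrees of freedom, and Benjamini-Hochberg adjustment over 7453. All tests were 2-sided. An extra smoke effect of 1 strain has 1 residual degree of freedom, and its single pair is assumed to vary like the others. The fits were tested on simulated data.

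Gene symbols come from the platform annotation, in which 10855 probe sets had 1 symbol, 396 several and 1237 none. All 40 member genes matched RefSeq and kept their symbols. Members, marker lists and pathway lists were chosen with earlier results of these data known. Genes were given array by array if called in a test, bright, among the 5 widest differences of a strain or strain pair, of 1 sign in 3 strains, or the partner of such a gene. Alternatives changed the constant, scaling, filter, prior, block or fold limit, or left out 1 pair or array. No sample was dropped or imputed. The median deposited intensity was lowest on the ICR smoked array, and the number of arrays limits precision.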

Additional observations from a re-analysis of the deposited data

Results flagged for a closer look

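In 5 probe sets the smoked and control arrays of 2 strains differed by at least 1.5-fold in opposite directions. None of these differences between 2 strains was tested as such. Cxcr5 (99841_at) differed by 2.38 on the log2 scale, at -1.22 in DBA and 1.16 in C57. Ccr6 (99899_at) differed by 1.80, at -1.03 in ICR and 0.77 in C57. The second Cx3cl1 probe set (161752_r_at) also differed by 1.80, at -0.87 in DBA and 0.93 in C57. Xcr1 (97053_at) differed by 1.74, at -1.14 in ICR and 0.60 in C57. Ccr3 (99412_at) differed by 1.48, at -0.86 in ICR and 0.62 in DBA. Cxcr5, Ccr3 and 161752_r_at were below the signal filter, with readings below the constant of 8.05 on some arrays.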

How the results depend on the processing

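Of the counts of members called or past a fold, 65 stayed within 1.5 times the reported count and 40 did not. Many of the 65 were counts of 0 both as reported and in the alternative. Selected test results of Ccl8, Ccl9, Ccr2, Cxcl1, Cxcl5 and Cxcl12 were followed through the alternatives, and none of these reversed its direction. Differences within the ICR pair did change sign without scaling, among them those of Cxcl1, Cxcl5, Cxcl14, Cx3cl1, Ccrl2 and Cxcr3 given above. Counts for DBA minus C57 (reported 1) were 0 with a constant of 1, with median scaling, with no scaling, with no filter and with a filter at the 60th percentile. Those for ICR minus C57 (reported 2) were 1 under the same settings, except 0 with no filter, and the 1 unscaled call was lower (Ccl8), where both reported calls were higher. Cxcl1 did not pass the filter in 4 of these settings. Unscaled, limma called 4 members lower in ICR minus DBA and 6 in the extra smoke effect of ICR, where 0 were reported. The DBA extra smoke effect called 1 (Ccl8) with a constant of 16 or no mean trend. Leaving out 1 pair or array gave 0 to 1 calls for the smoke effect, 0 to 4 for DBA minus C57, 0 to 4 for ICR minus C57 and 0 to 3 for ICR minus DBA. The highest counts came without the C57 pair for the smoke effect, without the DBA smoked array for DBA minus C57 and ICR minus DBA, and without either DBA array for ICR minus C57. A strain left with 1 array is assumed to vary like the others, and why calls rose in some of these fits was not tested. Members at least 2-fold different in C57 (reported 1) were 2 with a constant of 1, 4 with no filter, 0 with the stricter filter and 5 at 1.5-fold. In DBA (reported 5) they were 9 with no filter, 3 with the stricter filter and 3 at 3-fold. In ICR (reported 3) they were 0 with a constant of 16, 1 with median scaling (higher, with none lower), 8 unscaled (all lower), 6 with no filter, 0 with the stricter filter, 6 at 1.5-fold and 0 at 3-fold. Over all probe sets, calls for DBA minus C57, ICR minus C57 and ICR minus DBA were 129, 170 and 84 as reported, 67, 44 and 38 with no filter, and 85, 145 and 261 unscaled. Unscaled, the median over all probe sets kept was -0.73 for ICR minus C57 and -0.89 for ICR minus DBA. The cause of these changes was not tested. The test results followed for those 6 genes, from Ccl8 to Cxcl12, kept their side of the threshold in 89 of 108 values. Smoked and control arrays were paired within strain by the strain block. The replicate numbers gave no further pairing, since each group holds 1 array. Dim probe sets limit what these arrays can show.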
